A study of Mus musculus with 7 samples.

Results

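The region of Myb and Hbs1l on mouse chromosome 10 holds 2 genes that stand back to back, with their starts facing each other across an intergenic interval of 134.99 kb. Members were all anti-HA CUT&Tag peaks whose summit lay in either gene, between them or within 50 kb beyond, a window of 343.96 kb (chr10:21074935-21418898, mm10). They were 12 of the 6254 peaks called with GATA2 (0.192%) and 4 of the 1079 peaks called with 9aa-Ins. The members were selected on measured values, the positions of called summits, and the locus was picked because 1 of the strongest GATA2 peaks was known to lie nearest to Hbs1l. The number, height and place of the peaks are therefore given as a description, without a test.

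Myb encodes a transcription factor that definitive hematopoiesis requires, and its level falls as blood progenitors mature. Hbs1l encodes a GTPase that acts with PELO to free ribosomes stalled on mRNA. The DNA between them is known for enhancers that contact the Myb promoter and are bound in erythroid cells by GATA factors together with TAL1 and LDB1. GATA factors recognize WGATAR, in which W is A or T and R is A or G.

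CUT&Tag uses a transposase tethered to an antibody to cut and tag DNA around a protein on chromatin. All cells were hi–77−/− cells, mouse fetal liver progenitors that Hoxb8 keeps dividing and in which a distal Gata2 enhancer is deleted, so that endogenous Gata2 is reduced rather than absent. They received a retrovirus for GATA2 or for 9aa-Ins, whose 2 zinc fingers are pushed apart by inserted amino acids, each with an HA tag, and GFP-positive cells were sorted after 3 days, and the anti-HA antibody detects only the retroviral protein. Each construct had 2 anti-HA libraries, which were split from 1 pool of cells and deposited as 1 merged list, so no value below has a replicate error, and the 3 anti-GATA2 libraries among the 7 libraries of the labels were not analysed here. The height of a peak is given as its pileup, which counts reads at the summit and was recovered from the deposited fold enrichment. The background was 0.464 reads with GATA2 and 0.455 reads with 9aa-Ins, and the lowest called pileup was 9 reads in both lists. A site absent from a list was thus not called at this depth, which does not show that the protein was absent there. Intervals of pileups are exact Poisson 95% intervals and cover counting error only.

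Peaks were numbered along the chromosome, from the 3′ side of Myb toward Hbs1l. The first 4 stretches below, read from GRCm38 on the plus strand, belong to the GATA2 peaks of the intergenic interval with WGATAR within 100 bp of the summit. Capitals mark WGATAR on either strand. The last stretch is a site in both lists inside Myb, which has no WGATAR. GATA2 peak 11, the highest of the region, is shown over 300 bases that reach all of its WGATAR motifs, and the others from 100 bases before to 100 bases after the summit.
GATA2 peak 11, chr10:21228520-21228819: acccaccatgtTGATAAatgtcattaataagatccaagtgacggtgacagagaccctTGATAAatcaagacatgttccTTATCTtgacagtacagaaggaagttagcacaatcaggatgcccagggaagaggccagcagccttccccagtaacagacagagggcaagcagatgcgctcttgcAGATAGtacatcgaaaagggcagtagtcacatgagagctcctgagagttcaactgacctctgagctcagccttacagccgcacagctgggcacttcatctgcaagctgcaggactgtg
GATA2 peak 7, chr10:21186748-21186948: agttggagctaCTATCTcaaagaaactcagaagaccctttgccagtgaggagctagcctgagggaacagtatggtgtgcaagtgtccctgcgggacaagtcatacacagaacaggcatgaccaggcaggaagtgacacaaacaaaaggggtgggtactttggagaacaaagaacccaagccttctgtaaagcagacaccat
GATA2 peak 9, chr10:21196630-21196830: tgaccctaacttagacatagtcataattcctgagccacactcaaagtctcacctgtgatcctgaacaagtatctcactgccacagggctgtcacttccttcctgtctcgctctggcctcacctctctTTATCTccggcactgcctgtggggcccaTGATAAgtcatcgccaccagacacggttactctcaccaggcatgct
GATA2 peak 10, chr10:21221596-21221796: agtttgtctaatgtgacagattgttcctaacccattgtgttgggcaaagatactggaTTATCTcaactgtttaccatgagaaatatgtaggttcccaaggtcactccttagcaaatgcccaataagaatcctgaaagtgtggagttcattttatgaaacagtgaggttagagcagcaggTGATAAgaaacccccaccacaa
GATA2 peak 4, chr10:21158304-21158504: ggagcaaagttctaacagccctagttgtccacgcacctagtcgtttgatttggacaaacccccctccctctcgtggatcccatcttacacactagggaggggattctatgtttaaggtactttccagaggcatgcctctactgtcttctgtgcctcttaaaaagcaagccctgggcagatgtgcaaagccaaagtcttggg

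Occupancy by GATA2 in the region lay on the Myb side and in the interval, and none was called at Hbs1l. Myb (ENSMUSG00000019982.15, chr10:21124935-21160984, minus strand, 36.05 kb) held 4 GATA2 summits. The intergenic interval held 7, and 1 lay 41.4 kb beyond the 3′ end of Myb. Hbs1l (ENSMUSG00000019977.16, chr10:21295979-21368898, plus strand, 72.92 kb) held 0 summits although its body is the longer, and 0 lay beyond its 3′ end. The stretch from peak 12 to the end of the window, 166.6 kb that include the Hbs1l promoter and all of Hbs1l and Aldh8a1, had no GATA2 summit. All 4 peaks of 9aa-Ins lay in the body of Myb, and 0 lay in the interval or at Hbs1l. The map of pileups along the region shows this arrangement.

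**Figure D1:**
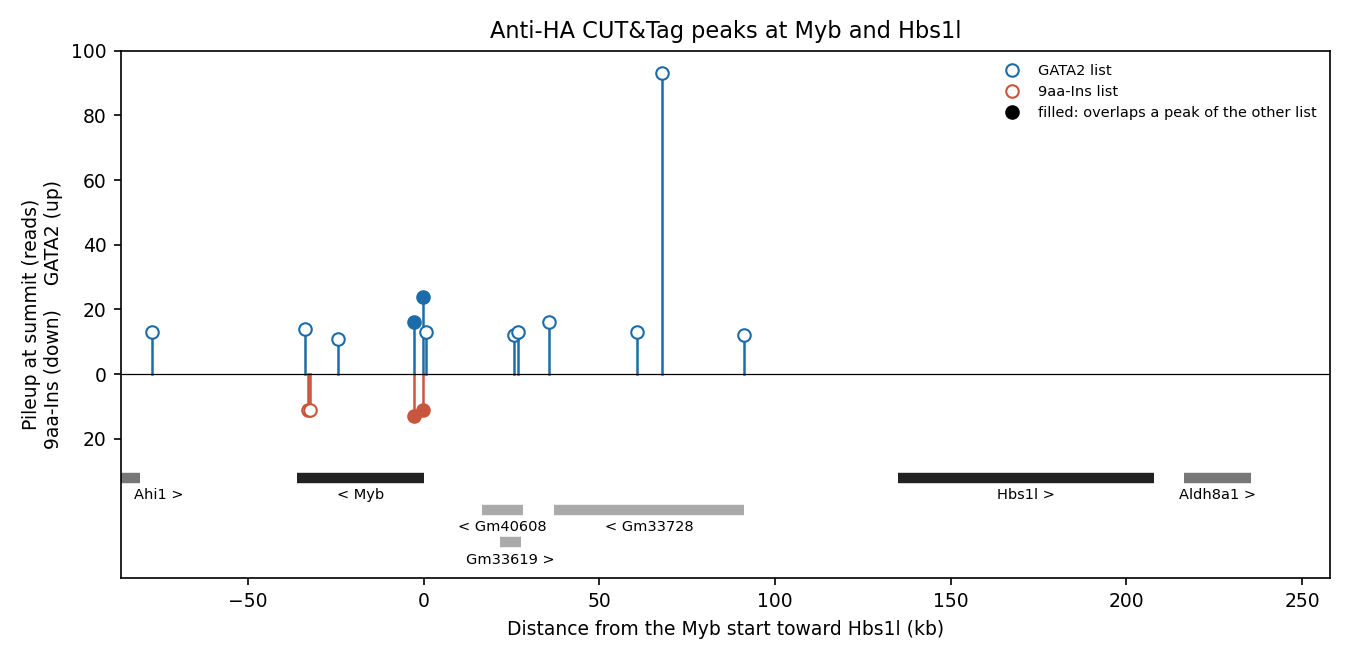
Pileup at the summit in reads (GATA2 upward, 9aa-Ins downward) against the distance from the Myb start toward Hbs1l in kb, with gene bodies as bars (black for Myb and Hbs1l, dark grey for Ahi1 and Aldh8a1, light grey for long noncoding RNA genes) and arrowheads for the direction of transcription. GATA2 peak 11 reached 93 reads between the genes, the other 11 GATA2 peaks had 11 to 24 reads, and the 4 9aa-Ins peaks had 11 to 13 reads inside Myb.

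The tallest peak, GATA2 peak 11, stood almost at the middle of the interval. Its summit was 67.8 kb upstream of the Myb start and 67.2 kb upstream of the Hbs1l start, so the assignment to Hbs1l as the nearest coding gene rests on a difference of under 1 kb. Peak 11 had a pileup of 93 reads (95% interval 75.1 to 113.9) and a fold enrichment of 64.2 in the authors' values, with a −log10 q-value of 170.976. It lay inside the long noncoding RNA gene Gm33728, outside its exons. In the GATA2 list it ranked 5 of 6254 by fold enrichment. Among the 5296 GATA2 peaks without an overlapping 9aa-Ins peak it ranked 3. Ahead of it were a peak of 98 reads in an intron with Mdga1 as nearest start and an intergenic peak of 97 reads nearest to Lrrc6. By width, 488 bp, peak 11 was not at the top of the list, with a percentile of 72.1 against a median width of 341 bp.

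Most other members were near or below the middle of the list, with peaks 4, 5 and 9 above its median. The 12 GATA2 peaks had a median pileup of 13 reads, against 15 over the whole list (quartiles 12 and 20), and 10 of the 12 did not exceed the upper quartile. Peak 11 was 3.88 times as high as the second, peak 5 with 24 reads (15.4 to 35.7), and 7.15 times the median of the others. It alone made up 37.2% of the 250 reads summed over the region's summits and 54.1% of the 172 reads summed over the interval. Only for peak 11 and peak 5 did the pileup lie above 16 reads. The intervals of the remaining 10 peaks overlapped each other and that of peak 5, so the order below peak 11 is not resolved at this depth.

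**Figure D2:**
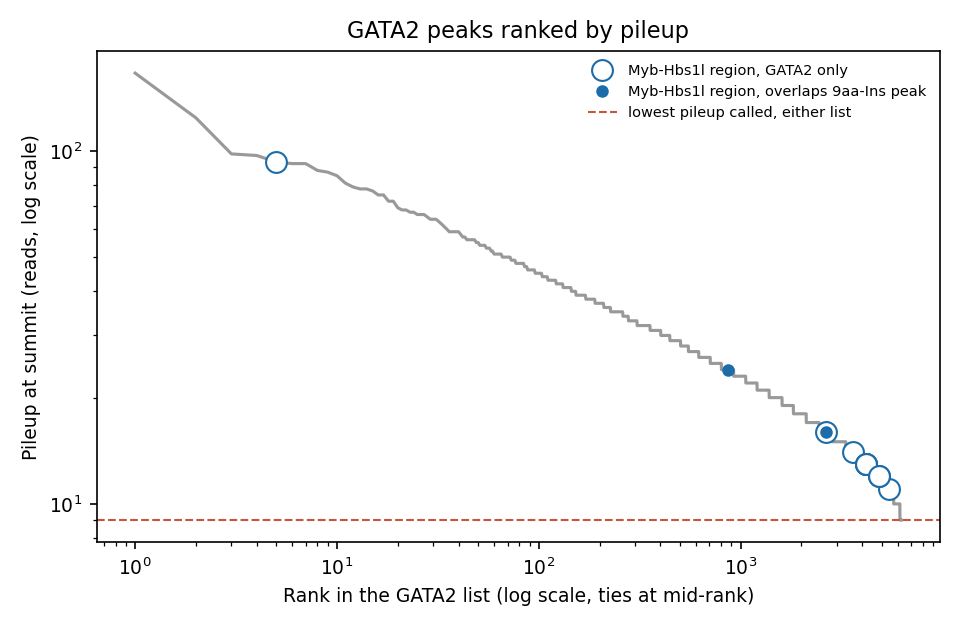
Pileup at the summit in reads (log axis) against rank in the GATA2 list (log axis, grey line over all 6254 peaks), with large open circles (GATA2 only) and small filled circles (overlapped by a 9aa-Ins peak) for the 12 peaks of the Myb and Hbs1l region, of which those of equal pileup lie on top of each other, and a dashed line at the lowest pileup of either list, 9 reads. Peak 11 sat at rank 5 with 93 reads, peak 5 followed with 24 reads, and the others lay between 11 and 16 reads, around the list's median of 15 reads.

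Within Myb, occupancy was found at the promoter, in the first intron and toward the 3′ end. Peak 5 covered the start, with its summit 76 bp inside the gene, in exon 1 of the transcript Myb-201, within the 5′ untranslated region. Peak 6, with 13 reads, had its summit 606 bp upstream, in the promoter as well (2 kb upstream to 100 bp downstream of a coding transcript's start). Peak 4, with 16 reads (9.15 to 26.0), lay 2.58 kb inside the gene in intron 1. Intron 1 of Myb is known as a place where transcript elongation is controlled. Peaks 2 and 3, with 14 and 11 reads, lay 33.7 and 24.2 kb inside the gene, both in intron 14 of Myb-201. Beyond the 3′ end, peak 1 had 13 reads at 77.4 kb downstream of the Myb start. Its summit, at position 21083571, lay nearer to the 3′ end of the neighbouring gene Ahi1 (21080429) than to that of Myb (21124935).

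Beyond the promoter, the sites of the interval began 25.9 kb upstream of Myb. Peaks 7 and 8, with 12 and 13 reads, lay 25.9 and 26.9 kb upstream of the Myb start, where the long noncoding RNA genes Gm40608 and Gm33619 overlap on opposite strands. Peak 9, with 16 reads (9.15 to 26.0), lay 35.7 kb upstream, outside annotated genes. Peaks 10 and 11 lay 60.7 and 67.8 kb upstream, both inside Gm33728, and peak 10 had 13 reads. Peak 12, with 12 reads, lay 91.3 kb upstream of Myb, 155 bp upstream of the start of Gm33728 and 43.7 kb upstream of Hbs1l. It was the GATA2 summit nearest to the Hbs1l start. Of the 7 sites of the interval 5 lay nearer to the Myb start and 2, peaks 11 and 12, nearer to that of Hbs1l.

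WGATAR was found within 100 bp of the summit at 4 of 12 GATA2 peaks, 33.3%, against 30.3% of all GATA2 peaks. Outside promoters it was 4 of 10, against 47.0% of all such GATA2 peaks. All 4 peaks with the motif, peaks 7, 9, 10 and 11, were in the interval, and none of the 5 GATA2 peaks in or beyond Myb had it in this window. Peak 1, beyond Myb, held 2 WGATAR motifs farther out in the peak, 146.5 and 247.5 bp after its summit. The 4-letter GATA core, which asks for no flanking letter, was present near 10 of 12 summits, against 48.2% of all GATA2 peaks, and outside promoters near 8 of 10, against 64.1%. Peaks 4 and 12 had no GATA core in this window. For comparison, 9 of 24 windows of the same length placed 2 kb to each side of the region's summits held WGATAR.

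Peak 11 had the motif AGATAG 45.5 bp before its summit, and 3 more WGATAR motifs lay farther out in the peak, at 149.5, 170.5 and 216.5 bp on the same side. All 4 are in the first stretch printed above, and none lay on the other side of the summit inside the peak. An E-box of the letters cagatg preceded AGATAG on the same strand with 9 bases between them. This composite, CANNTG and WGATAR at 6 to 14 bases, is the arrangement known for GATA factors with TAL1, and it occurred near 1 of the 12 region summits against 4.86% of all GATA2 summits and 8.84% of those outside promoters. Peak 9 had AGATAA on the minus strand 29.5 bp and TGATAA on the plus strand 57.5 bp after its summit, and peak 10 had AGATAA 40.5 bp before and TGATAA 81.5 bp after. In peak 7 the motif of the window lay 86.5 bp before the summit, outside the called peak, and another one lay inside the peak 106.5 bp after the summit. A match is a description of the letters, and binding at it was not tested.

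**Figure D3:**
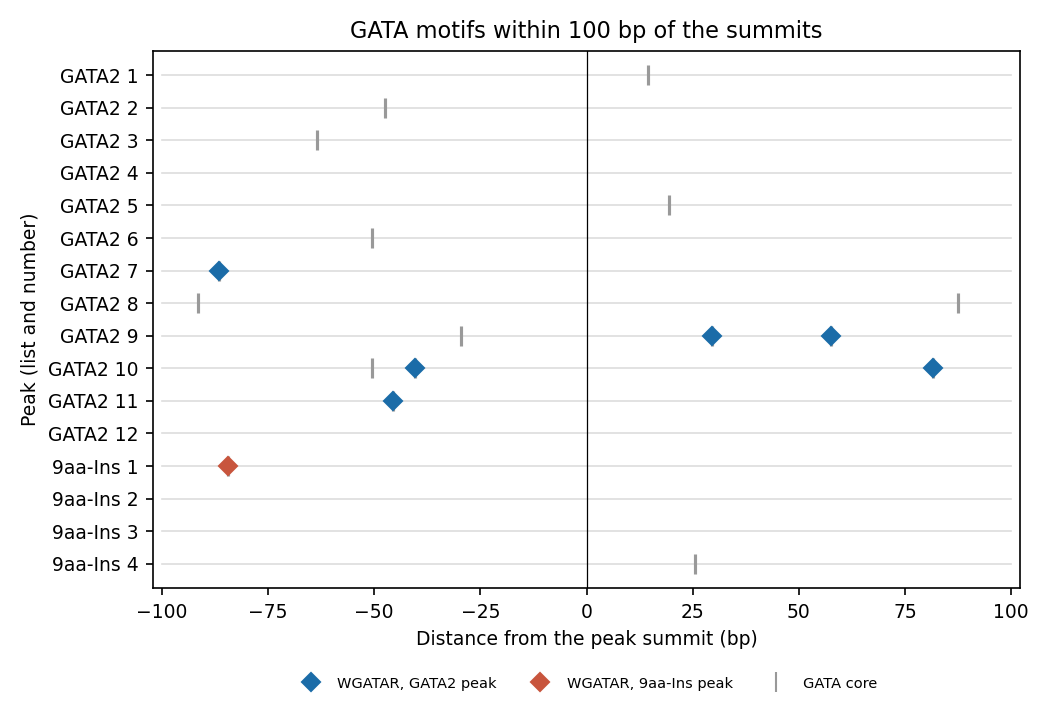
Positions of WGATAR (diamonds) and of the GATA core outside WGATAR (grey strokes, the core within each diamond is hidden) in bp from the summit, 1 row for each of the 12 GATA2 and 4 9aa-Ins peaks of the region. WGATAR was present in the rows of GATA2 peaks 7, 9, 10 and 11 and of 9aa-Ins peak 1, and GATA2 peaks 4 and 12 had neither motif.

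Motifs of other factors of blood progenitors were near their shares in the whole list. GGAAGT, bound by ETS factors, was near 2 of 12 summits (peaks 7 and 9) against 19.7% of all GATA2 peaks. TGNGGT, bound by RUNX factors, was near 5 of 12 against 40.2%. TGANTCA, bound by AP-1, was near 0 of 12 against 6.33%, and a pair of WGATAR motifs at most 5 bases apart near 0 of 12 against 0.688%. WGATAR itself was frequent in the DNA of the region, with 766 copies, or 2.23 per kb. Of these, 13 lay inside a GATA2 peak and 6 within 100 bp of a GATA2 summit. In the interval there were 334 copies, 2.47 per kb, with 11 inside GATA2 peaks, and 1 copy of the whole region lay inside a 9aa-Ins peak.

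9aa-Ins shared 2 of the 12 GATA2 peaks, 16.7%, and 15.3% of all GATA2 peaks were overlapped by a 9aa-Ins peak. Outside promoters the count was 1 of 10, against 8.49% of all such GATA2 peaks. The shared sites were the Myb promoter (GATA2 peak 5) and intron 1 (GATA2 peak 4), and both were in Myb. At the promoter the pileup was 24 reads with GATA2 and 11 reads with 9aa-Ins (5.49 to 19.7), a ratio of 2.18 (exact conditional 95% interval 1.03 to 4.93), with the summits 6 bp apart. In intron 1 it was 16 and 13 reads, a ratio of 1.23 (0.555 to 2.78), with the summits 134 bp apart. The interval of the intron includes a ratio of 1, and that of the promoter lay just above it, on counting error alone. Over all 958 shared peaks the median ratio was 1.5 (quartiles 1.17 and 1.92), so the promoter lay above and the intron inside the central range. The promoter's interval of 1.03 to 4.93 includes that median and both quartiles, so its ratio is not told apart from them at this depth.

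None of the 7 GATA2 peaks of the interval, peak 11 included, had an overlapping 9aa-Ins peak. The share overlapped was 15.3% of all GATA2 peaks and 8.49% of those outside promoters, so most GATA2 peaks lack such an overlap. For peak 11 the GATA2 pileup was 10.3 times the lowest 9aa-Ins pileup called, and for the other 9 GATA2-only peaks of the region it was 1.22 to 1.78 times that pileup. Placed on the 9aa-Ins background, all 10 pileups passed that limit, and a Poisson draw around each would pass it with a probability of 76.2% for peak 3 to 100% for peak 11, or 8.94 of 10 in sum. Both values describe the difference in background and counting error only. They run high, because the 10 peaks had been called at the same lowest pileup with GATA2. In the whole GATA2 list 28 GATA2-only peaks had at least 50 reads, 89.3% of them with WGATAR, and 44 shared peaks reached 50 reads.

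Of the 4 9aa-Ins peaks, 2 overlapped a GATA2 peak, against 88.0% of all 9aa-Ins peaks. The other two, 9aa-Ins peaks 1 and 2, had 11 reads each (5.49 to 19.7) and lay 32.7 and 32.3 kb inside Myb, in intron 14. Both were close to GATA2 peak 2, which had 14 reads, with gaps of 585 and 1079 bp and no overlap. WGATAR lay within 100 bp of the summit of 9aa-Ins peak 1, and the other 3 had none. Myb was 1 of 6 protein-coding genes with at least 2 9aa-Ins-only summits in the body, counted without merging. The others were Mpo with 6, and Mroh2a, Nfix, Spns2 and Tspoap1 with 2 each. The 2 summits in Myb belong to close peaks, at 21128018-21128274 and 21128512-21128777. With gaps under 1 kb merged these form 1 peak, and the region holds 3 9aa-Ins peaks. In place of the q-value of 1e-06, all 4 9aa-Ins peaks of the region passed at 1e-08 and 1 passed at 1e-10.

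The interval was among those with most GATA2 peaks in the genome. Of 4760 intervals of at least 50 kb between neighbouring protein-coding genes, 84.5% held no GATA2 summit, and 0.105% held 7 or more. Myb to Hbs1l tied at rank 3 with the intervals from Olfr1507 to Dad1, which holds the T cell receptor alpha locus, and from Myc to Gsdmc, which holds distal blood enhancers of Myc. Those are 1740 and 1786 kb long, against 135.0 kb here. Of the 2 intervals with more, the one from Haao to Zfp36l2 had 12 summits. By the highest single pileup Myb to Hbs1l ranked 1 among the 4760, with 93 reads. Haao to Zfp36l2 had 66 reads, Olfr1507 to Dad1 48 and Myc to Gsdmc 23. The locus was picked for this peak of 93 reads, so that rank is not an independent result. The intergenic peak of 97 reads nearest to Lrrc6 lay in no interval of at least 50 kb. By peaks per kb Myb to Hbs1l ranked 12. The next by number were Trib2 to Lpin1, 6030408B16Rik to Krt80, Chsy1 to Lrrk1 and Tex44 to Ptma with 6 each, and of those with 5 Runx1 to Setd4 had the largest summed pileup. When all annotated genes set the limits, noncoding genes and the pseudogene Gm2467 split the interval into 4 stretches of 5.75 to 37.1 kb with 0 or 1 peak each, since peaks 7, 8, 10 and 11 lie inside noncoding genes. The stretches with 1 peak ranked 210 among such intervals of any length, a set other than the 4760 above.

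**Figure D4:**
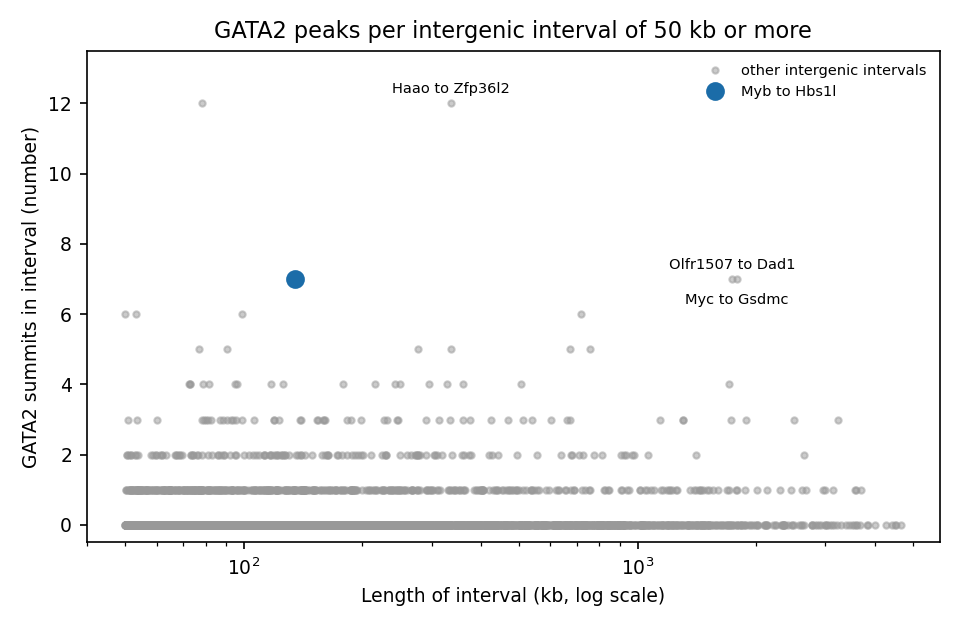
Number of GATA2 summits against length in kb (log axis) for 4760 intergenic intervals of at least 50 kb, each a point, with Myb to Hbs1l as the large point and the other intervals longer than 100 kb with 7 or more named. Myb to Hbs1l held 7 summits in 135.0 kb, and the intervals that tied with it were 1740 and 1786 kb long.

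The 3 intervals with 7 summits also had no 9aa-Ins peak, whereas Haao to Zfp36l2 had 2. Few overlaps are usual, since 8.49% of all GATA2 peaks outside promoters were overlapped by a 9aa-Ins peak. Counted from the gene start, Myb had 13 GATA2 summits within 100 kb, 1 of them in Ahi1 outside the window. That many were reached by 0.41% of 21938 protein-coding genes, whose median was 1. It had 4 9aa-Ins summits in that reach. Hbs1l had 4 GATA2 summits within 100 kb, a number reached by 11.5% of genes, and 0 9aa-Ins summits. A GATA2 summit within 100 kb was found for 52.1% of all protein-coding genes, and a 9aa-Ins summit for 18.6%. All 4 summits counted for Hbs1l, peaks 9 to 12, were also counted for Myb.

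The neighbours outside the pair differed. Ahi1, a gene of the primary cilium whose 3′ end reaches into the window, had 7 GATA2 summits in its body, of which none was in the window. The first GATA2 summit of the window, peak 1, lay 8.64 kb inside its limit, and the nearest one outside lay 8.97 kb beyond it, in Ahi1, with 21 reads. On the other side Aldh8a1, an aldehyde dehydrogenase gene, had no GATA2 summit within 100 kb of its start, and the next GATA2 peak lay 2364 kb beyond the limit, with 12 reads and Rps12 as nearest start. For 9aa-Ins the next peaks were 727.1 kb away in Mtfr2 and, on the far side, 18310 kb away with Rev3l as nearest start.

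Genes known to act with MYB, to depend on it or to act with HBS1L were counted in the same way. In the list of MYB family members and coactivators, 4 of 6 genes had a GATA2 summit within 100 kb of the start and 2 of 6 a 9aa-Ins summit, against the 52.1% and 18.6% of all protein-coding genes given above. Mybl1, a close relative of Myb in germ cells, had 14 reads at its promoter. Kmt2a, a histone methyltransferase, had 20 reads at its promoter, and Men1, its partner protein menin, had 5 GATA2 and 2 9aa-Ins summits in reach. Ep300, a histone acetyltransferase that binds MYB, had a peak of 46 reads with GATA2 and of 17 reads with 9aa-Ins 62.2 kb upstream of its start with GATA2. Mybl2, a regulator of the cell cycle, and Crebbp, the relative of Ep300, had none.

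In the list of MYB-regulated genes of blood progenitors, 7 of 8 had a GATA2 summit in reach, against 52.1% of all protein-coding genes, and 4 of 8 a 9aa-Ins summit, against 18.6%. Myc, which drives growth and proliferation, had 32 reads with GATA2 and 12 with 9aa-Ins at its start. Kit, the receptor for stem cell factor, had 16 reads at its start, and Cd34, a progenitor surface protein, had 19 reads at its start and 26 reads inside the gene, both with GATA2 only. Gfi1, a repressor in granulocyte progenitors, had its highest GATA2 peak of 85 reads 33.3 kb upstream, against 17 reads at the peak nearest to its start, and no 9aa-Ins summit. Mpo and Elane, enzymes of neutrophil granules, had 10 and 6 GATA2 summits and 14 and 3 9aa-Ins summits in reach, and the highest 9aa-Ins summit near Mpo, 55 reads, lay 11.7 kb downstream of its start, beyond its 3′ end. Ccnb1, a mitotic cyclin, had 2 and 1, and Bcl2, which blocks apoptosis, had none.

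Among partners of HBS1L in ribosome rescue and RNA decay, 5 of 9 genes (55.6%) had a GATA2 summit in reach and 2 of 9 (22.2%) a 9aa-Ins summit, close to the 52.1% and 18.6% of all protein-coding genes. Pelo, the direct partner, had none of either. Abce1, which splits ribosomes, had 28 reads 32.6 kb downstream of its start, and Zfp598, which marks collided ribosomes, had 13 reads at its promoter and 7 summits in reach. Gspt1, a termination factor related to HBS1L, had 12 reads with GATA2 and 15 with 9aa-Ins near its start, and Eef1a1, the elongation factor of the same family, 34 and 25 reads 7.29 and 7.30 kb downstream of its start. Skiv2l, a helicase of the SKI complex, had 2 GATA2 summits, and its partners Ttc37 and Wdr61, as well as Gspt2, had none.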

How the data were processed

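Anti-HA CUT&Tag peaks were analysed for both constructs, GATA2 and 9aa-Ins, in hi–77−/− cells. The authors aligned reads to mm10 with Bowtie2, discarded duplicated and blacklisted reads and called peaks with MACS3 at a q-value of 1e-06; versions are not given in the sources used here. Each deposited list covers 2 merged replicates of a construct, and the methods describe merged peaks whereas 1 background per list points to merged reads. The deposited score, fold enrichment (a ratio of pileup plus 1 over background plus 1) and −log10 q-value are the authors' values, and their −log10 p-value was not used. Read totals were not analysed here, and 0 columns belonged to other samples.

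Pileups were recovered from the fold enrichments, and 100% came out whole, within 0.000616 of a whole number. Recovery and motif search were tested on simulated data, with 100% of 6000 pileups and of 500 planted motifs returned. Shared peaks overlapped by at least 1 bp. Genes came from GENCODE M21 on GRCm38. WGATAR, the GATA core and the motifs of E-box, ETS, RUNX and AP-1 factors spelled out in the text were searched on both strands within 100 bp of summits, and matches of different motifs may overlap. Ratios of pileups have exact conditional (Clopper-Pearson) 95% intervals. Python 3.11.15, numpy 2.4.6 and scipy 1.17.1 were used.

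The members, gene lists and alternatives were chosen with earlier results of these data known. The genes named are Myb and Hbs1l, coding genes in the window or nearest to its peaks, those that bound the 10 intervals of at least 50 kb with most GATA2 summits, and the 3 lists. Mdga1, Lrrc6, Rps12, Mtfr2, Rev3l and the genes with 9aa-Ins-only summits were named after their values were seen. Of these, 1 interval is not reported here, and the sequence of 1 peak is not reported here either.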

Additional observations from a re-analysis of the deposited data

How the results depend on the processing

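Of 43 alternatives, 34 moved no count by more than 1.5 times and no other value beyond its counting interval, and 9 did. The 12 GATA2 peaks of the region became 10 to 16 across thresholds, window limits and merging, and the 7 of the interval 6 or 7. At a q-value of 1e-10 the 4 9aa-Ins peaks became 1. The 2 shared GATA2 peaks became 1 with a reciprocal overlap of 50%, 1 at a q-value of 1e-10 in both lists, and 4 when a 9aa-Ins peak within 1 kb sufficed. Peaks with the motif were 10 with the GATA core in place of WGATAR. The percentile of peak 11 was 72.1 by width in place of 99.9. The rank of the interval was 210 with all annotated genes as limits, over intervals of any length, and 12 by peaks per kb. HBS1L partners with a GATA2 peak were 3 within 10 kb.

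Leaving out a replicate was not run, because each list merges both. No paired analysis was possible because the lists carry no replicate numbers. Peaks of 9 to 16 reads are near the lower limit of both lists. The 10 GATA2-only peaks that passed the 9aa-Ins limit became 8.94 expected with Poisson error, a value that runs high because these peaks were selected as called. Intervals cover counting error only, since reads were amplified without molecular identifiers.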
